A study of Homo sapiens with 79 samples.

Results

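The mRNAs described here are 10 transcripts, most of them known for rapid induction and rapid decay: MYC, JUN, JUNB, JUND, FOS, ATF3, EGR1, IER2, IER3 and DUSP1. They were taken from the gene table by their symbols, and all 10 of them were among the 25442 genes that passed the filter on low values, out of 48453 genes in the table. RNA was sequenced after formaldehyde RNA immunoprecipitation (fRIP), in which RNA crosslinked to a protein is pulled down with an antibody to that protein, and from input lysate. All libraries came from K562, an established human erythroleukemia cell line, grown without any stimulus named in the labels, and all cells, those for input included, were crosslinked in 0.1% formaldehyde. The 24 target proteins were the RNA-binding proteins HUR, IMP1, PABP, ADAR, HNRNPH1 and HNRNPU, the Polycomb proteins EZH2 and SUZ12, the remodelers CHD1, CHD4 and CHD7, and WDR5, RBBP5, PHF8, LSD1, HDAC1, DNMT1, CBP, PCAF, CBX3, phospho-CBX3, CTCF, STAG2 and NUP98. There were 70 fRIP libraries, 3 for each protein except EZH2 and STAG2 with 2, and 9 input libraries in 3 sets of 3.

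Immediate early genes are transcribed within minutes of a signal without new protein synthesis, and their mRNAs are short lived. Many of these mRNAs carry AU-rich elements in the 3′ untranslated region (UTR), in which the pentamer AUUUA recurs and the nonamer UUAUUUAUU is a strong form. HUR (ELAVL1) is known to bind AU- and U-rich elements and to protect such mRNAs from decay, and IMP1 (IGF2BP1) is known to bind the coding region of MYC mRNA and to protect it. Most products of this group are transcription factors, and JUN, JUNB, JUND and FOS form the dimers of AP-1.

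AU-rich stretches of 6 of these mRNAs are shown as examples. Each is the 30-base stretch of the 3′ UTR with the most pentamers, read from the hg19 (GRCh37) genome with the GENCODE v44 annotation lifted to it and written 5′ to 3′ as DNA, and capitals mark ATTTA, the pentamer AUUUA in RNA. FOS and DUSP1 hold a pair of overlapping pentamers in a stretch that also holds the nonamer, IER3 holds a pair of separate pentamers, and JUNB, JUND and ATF3 hold 1 each.
FOS, chr14:75748754-75748783, plus strand: gttttattgtgtttttaATTTATTTAttaa
DUSP1, chr5:172195635-172195664, minus strand: ttATTTATTTAacttcacccgagttcctct
IER3, chr6:30711428-30711457, minus strand: tcctaattaatATTTAtatgtATTTAtgta
JUNB, chr19:12903862-12903891, plus strand: atattgaatataatatatttgtgtATTTAa
JUND, chr19:18390796-18390825, minus strand: tATTTAtgtttctactcgggaacaaacgtt
ATF3, chr1:212794033-212794062, plus strand: ttttctgtaagagaaaatattacttATTTA

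Over the whole 3′ UTR, 9 of the 10 mRNAs held at least 1 AUUUA, against 65.3% of 12469 mRNAs with a 3′ UTR that were tested. The counts were 6 in IER3, 5 in FOS, 4 each in MYC and DUSP1, 3 each in JUN and ATF3, 2 in JUNB, and 1 each in JUND and EGR1, and IER2 held none. The nonamer was found in 2 of the 10, FOS and DUSP1, against 7.48% of all these mRNAs. The group was chosen as short-lived mRNAs, many of them with AU-rich elements, so higher shares follow in part from that choice. Of the 10 leading transcripts, 4 (JUN, JUNB, JUND and IER2) have a single exon, against 2.63% of all these mRNAs. The leading transcript of JUND was also among the richest in G and C, with 69.9% and a percentile of 99.6.

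Read as the number of fragments behind the deposited values, depth in units of 1e+06 fragments lay between 1.93 and 58.4 in the fRIP libraries (median 13.3) and between 11.9 and 30.4 in input (median 20.7), and the shallowest libraries were those of ADAR. Of 10 marker genes of K562, 9 were at 1 FPKM (fragments per kilobase of transcript, scaled to library size) or more in every input library, the exception being HBZ in 1 library, and 5 of 8 markers of other blood cells were below 1 FPKM in every input library. CD3D and LYZ, also on that list, were present. Each protein could be matched to 1 of the 3 input sets, and 6 libraries, those numbered 3 of input set 2 and of its matched proteins CHD1, NUP98, PCAF, RBBP5 and WDR5, stood apart by low ATF3, as described with the IMP1 values. HSPA8, a constitutive chaperone of the heat shock family, was at 673 to 1325 FPKM in these 6 and at 91.2 to 847 FPKM in the other 73 libraries, so that its ranges overlapped.

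In input, the level per length of these mRNAs ran from FOS to MYC. MYC, a transcription factor that drives growth, had a mean of 66.9 ± 10.9 FPKM (SD, n = 9). JUND followed at 43.2 ± 16.4 FPKM, ATF3 at 29.6 ± 12.2 FPKM and IER2 at 24.6 ± 3.03 FPKM. JUNB was at 12.0 ± 2.69 FPKM, IER3 at 10.6 ± 1.94 FPKM, JUN at 9.48 ± 3.05 FPKM and EGR1 at 9.11 ± 4.57 FPKM. DUSP1 (4.52 ± 0.838 FPKM) and FOS (3.32 ± 2.15 FPKM) were lowest, and the ranges of all neighbours in this order overlapped except those of IER2 and JUNB.

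JUND and JUNB differed between the input sets without overlap. JUND lay between 25.4 and 27.2 FPKM in set 1, between 36.97 and 48.0 FPKM in set 3 and between 55.6 and 66.0 FPKM in set 2. JUNB kept the same order of sets, at 8.06 to 9.93, 11.5 to 12.6 and 13.8 to 15.8 FPKM. The sets were not tested against each other. An exact permutation test of 3 libraries against 3 cannot go below 0.1, and no other test between the sets was run. FOS had the widest spread for its level, between 0.841 and 5.96 FPKM, or about 25.0 to 325 fragments per library. The first library of set 1 was the lowest of its set for 7 of the 10 mRNAs (JUN, JUNB, FOS, ATF3, EGR1, IER2 and DUSP1) and the highest for MYC, JUND and IER3. EGR1, a zinc finger factor, was at 2.82 FPKM in that library and at 14.7 and 15.2 FPKM in the other two of the set.

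HUR fRIP was asked about first, because HUR is the protein best known for AU-rich mRNAs. None of the 10 mRNAs was enriched over input at an adjusted p under 0.05 and more than 2-fold (limma with Benjamini-Hochberg adjustment), where 6.42% of all genes tested were, and 2 were depleted, JUNB and IER3, where 6.93% of all genes were. The median log2 fold change over the 10 was -0.22, and over all genes tested it was 0.08. FPKM is a share of a library, so less of an mRNA and more of all other RNA in a fRIP cannot be told apart.

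JUNB, an AP-1 subunit, was at 4.99, 3.80 and 3.55 FPKM in the HUR libraries and between 8.06 and 15.8 FPKM in the inputs. Every HUR library was thus below every input library, and the log2 fold change was -1.33 (SE 0.17, adjusted p = 2.57e-09). Against input set 1 alone it was -0.99, short of the 2-fold criterion. IER3, a regulator of survival and apoptosis, was at 2.86, 4.13 and 2.91 FPKM with HUR and between 8.53 and 14.9 FPKM in input. It too did not overlap with input, and its log2 fold change was -1.43 (SE 0.25, adjusted p = 3.96e-06). These HUR values rest on about 30.1 to 75.2 fragments per library for JUNB and 16 to 41 fragments for IER3.

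DUSP1, the phosphatase that switches off MAP kinases, was at 2.19, 2.45 and 2.21 FPKM with HUR, below all inputs (3.23 to 5.79 FPKM), with a log2 fold change of -0.73 (adjusted p = 0.00392) that missed the 2-fold criterion. JUNB, IER3 and DUSP1 were the 3 of 10 mRNAs with every HUR library below every input, where 13.4% of all genes tested were below and 18.3% were above. For each of the 3 the exact permutation test over libraries (two-sided, 3 against 9) gave p = 0.00909, the smallest it can give, or 0.0364 after Benjamini-Hochberg adjustment over 20 such tests. JUN was at 4.91, 6.15 and 4.00 FPKM with HUR, at and below the lower end of input (4.67 to 13.8 FPKM). Its log2 fold change was -0.76 (adjusted p = 0.0314), also under 2-fold. After centring every library on its own median, the value was -1.01 (adjusted p = 0.00527), which makes JUN the third depleted mRNA in that setting.

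JUND had the highest value of the group with HUR. Its HUR libraries held 77.6, 82.2 and 48.5 FPKM, and input held 25.4 to 66.0 FPKM. The lowest HUR library lay within the input range, and the log2 fold change was 0.73 (SE 0.23, adjusted p = 0.00866), below 2-fold. Against input set 1 alone it was 1.34 and would have been called enriched, and against set 2 alone it was 0.12. MYC was at 71.7, 79.7 and 49.9 FPKM with HUR and between 53.3 and 81.5 FPKM in input, a log2 fold change of -0.01 (95% interval -0.37 to 0.36). FOS (-0.10, interval -1.10 to 0.90), EGR1 (-0.24, interval -1.28 to 0.79), IER2 (-0.20, interval -0.44 to 0.03) and ATF3 (0.56, interval -0.65 to 1.77) overlapped with input as well, and the intervals of FOS and EGR1 reach past a 2-fold fall and that of ATF3 past a 2-fold rise. The ATF3 value was 0.26 without input set 2 replicate 3 and 0.12 against the matched set.

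**Figure D1:**
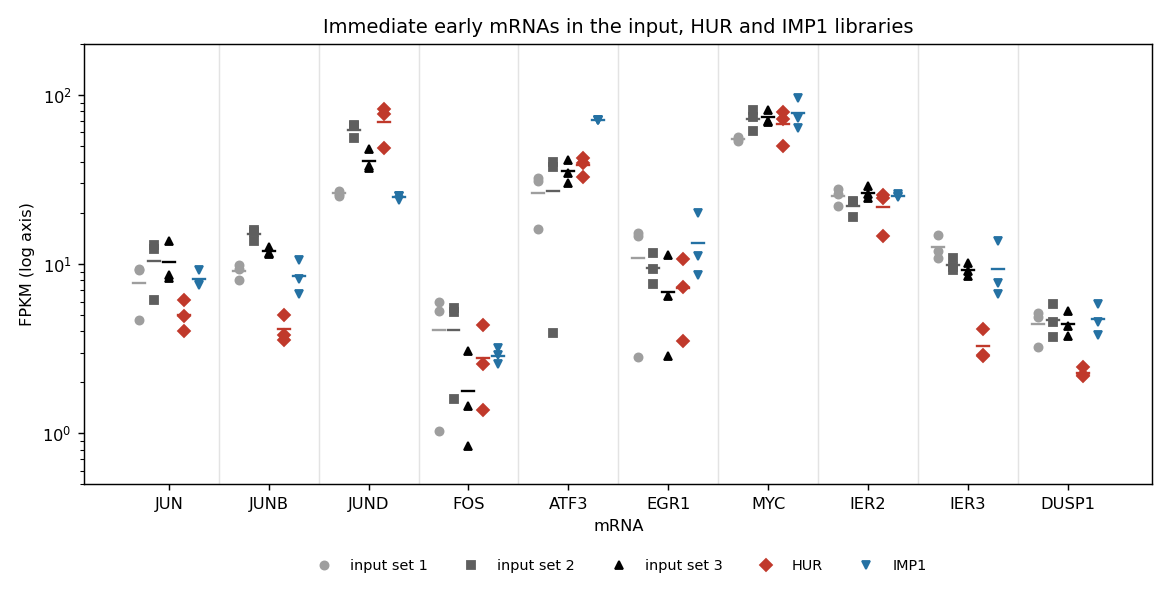
FPKM (log axis) of each mRNA in the 9 input libraries (grey to black, by input set), the 3 HUR libraries (red) and the 3 IMP1 libraries (blue), with each point 1 library and each line the mean. The HUR points of JUNB, IER3 and DUSP1 lie below all input points, and the IMP1 points of ATF3 lie above them.

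IMP1 fRIP gave 1 enriched mRNA of the 10, ATF3, where 4.23% of all genes tested were enriched, and no depleted one, where 10.5% were. The median over the 10 was 0.03 and over all genes tested -0.17. At an adjusted p under 0.05 alone, without the 2-fold criterion, JUND (-0.69, adjusted p = 0.0124) and JUNB (-0.45, adjusted p = 0.0273) lay lower with IMP1. For JUNB this did not remain against the matched input set 1 (-0.11, adjusted p = 0.699) or with centring (adjusted p = 0.983).

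ATF3, a stress-induced partner of AP-1 proteins, was at 71.0, 71.2 and 70.9 FPKM with IMP1, above all inputs (3.93 to 41.1 FPKM). The log2 fold change was 1.44 (SE 0.60, adjusted p = 0.0474) and the exact permutation p was 0.00909 (0.0364 after adjustment). ATF3 was the only one of the 10 above every input, where 12.8% of all genes were. The call was lost against the matched input set 1 (1.46, adjusted p = 0.112), and also when any 1 of the 3 IMP1 libraries, input set 1 replicate 1 or input set 2 replicate 3 was left out (1.13 to 1.44, adjusted p 0.0698 to 0.113). Without the 6 libraries that stood apart it was 1.13. These are the libraries with the lowest ATF3, so leaving them out narrows the spread of ATF3 by construction and no test is given.

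ATF3 was lowest in these 6 libraries. They held 3.01 to 6.10 FPKM of ATF3, in input and fRIP alike, and the other 73 libraries held 11.3 to 95.8 FPKM. The inducible heat shock mRNA HSPA1A had a median of 28.0 FPKM in the 6 and 8.39 FPKM in the others. FOS was at 1.61 to 3.83 FPKM in the 6, below all other libraries of set 2 and its proteins (4.28 to 15.6 FPKM) and within its range over the other 73 libraries (0.245 to 53.9 FPKM). What sets these libraries apart was not tested.

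**Figure D2:**
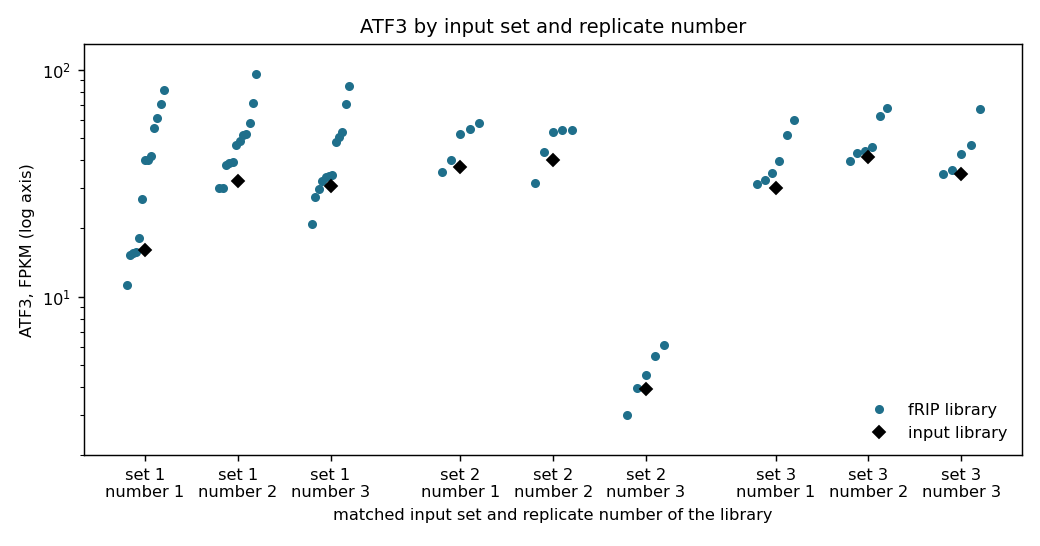
ATF3 in FPKM (log axis) for each library with a replicate number, placed by the input set its protein was matched to and by that number, with inputs as black diamonds and fRIP libraries as blue points. The 6 libraries of set 2 with number 3 lie between 3.01 and 6.10 FPKM, below all others.

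For MYC, the mRNA tied to IMP1 by its coding region, IMP1 libraries held 73.4, 63.4 and 96.3 FPKM. They overlapped with input, and the log2 fold change was 0.21 (95% interval -0.16 to 0.58). It was 0.47 (adjusted p = 0.0787) against the matched input set and 0.66 (adjusted p = 0.0123) with centring. JUND was at 25.3, 23.9 and 25.1 FPKM with IMP1, below all inputs, as were 23.6% of all genes tested. Its exact permutation p was also 0.00909 (0.0364 after adjustment), but this test takes no account of the input sets. The lowest inputs of JUND are those of set 1, to which IMP1 was matched, and against that set the log2 fold change was -0.08 (adjusted p = 0.835). DUSP1 (0.05), IER2 (0.05), FOS (0.02), JUN (-0.14), IER3 (-0.21) and EGR1 (0.58) had adjusted p between 0.391 and 0.985. Centring shifted the median of all genes by 0.46. With it, IER2 was 0.50 (adjusted p = 0.00124) and DUSP1 0.51 (adjusted p = 0.0480), both under 2-fold. FOS (0.48, adjusted p = 0.443) and JUN (0.31, adjusted p = 0.396) did not pass.

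Set directly against each other, HUR and IMP1 differed for 2 of the 10 mRNAs. JUND was higher with HUR by 1.41 on the log2 scale (SE 0.28, adjusted p = 3.70e-05), as were 15.3% of all genes tested, and its HUR libraries (48.5 to 82.2 FPKM) did not overlap with its IMP1 libraries (23.9 to 25.3 FPKM). IER3 was lower with HUR, with a log2 difference of -1.22 (SE 0.31, adjusted p = 0.000875), as were 5.72% of all genes, and again the libraries did not overlap (2.86 to 4.13 against 6.62 to 13.6 FPKM). HUR was matched to input set 3 and IMP1 to set 1. With each protein first set against its matched inputs, the difference was 0.80 for JUND (adjusted p = 0.0542) and -0.82 for IER3 (adjusted p = 0.135), both no longer called, and JUNB was called lower with HUR at -1.24 (adjusted p = 0.000179). Without IMP1 replicate 2 the difference of IER3 was -0.94, and with each library centred on its median that of JUND was 0.71, also not called. With that centring 5 of the 10 were called lower with HUR, where 5819 of 25442 genes were. These were IER3 (-1.93), JUNB (-1.59), EGR1 (-1.54), DUSP1 (-1.49) and JUN (-1.32).

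The HUR values of the group were also set beside those of other mRNAs with as many pentamers. Among all mRNAs tested, the median log2 fold change in HUR fRIP was -0.28 for 4331 mRNAs without AUUUA, -0.07 for 3413 with 1 or 2, and 0.27 for 4725 with 3 or more. The 6 of the 10 mRNAs with 3 or more had a median of -0.42, and 4 of them, JUN, FOS, IER3 and DUSP1, lay below the lower quartile of their class (-0.04), while MYC and ATF3 lay above it. The places of FOS and MYC depend on the inputs, since against the matched input set 3 the value of FOS was 0.43 (adjusted p = 0.639) and that of MYC was -0.15 (adjusted p = 0.643). FOS and DUSP1, which hold the nonamer, were at -0.10 and -0.73 against all inputs, where 933 mRNAs with the nonamer had a median of 0.27. With IMP1, the medians by class were -0.34, -0.10 and 0.29, and that of the 6 mRNAs was 0.04. These are descriptions of 10 mRNAs within annotated 3′ UTRs and were not tested.

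**Figure D3:**
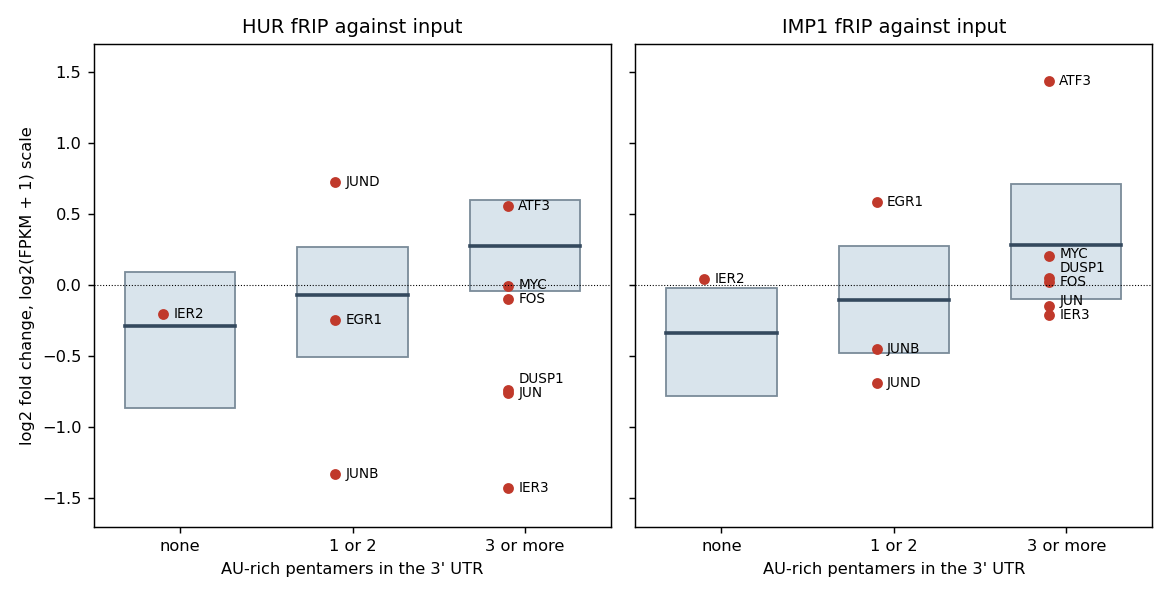
Log2 fold change over input in HUR (left) and IMP1 fRIP (right) by the number of AU-rich pentamers in the 3′ UTR, with boxes from the lower to the upper quartile of all mRNAs tested, a line at their median, and a red point for each immediate early mRNA. In HUR, IER3, JUN, DUSP1 and FOS lie below the box of the class with 3 or more pentamers, and JUNB lies below the box of the class with 1 or 2.

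The other 22 proteins are mostly chromatin proteins. Of the 220 pairs of an mRNA and a protein, 34 (15.5%) were enriched, where 7.04% of all pairs of a gene and a protein were, and 9 (4.09%) were depleted, where 5.23% were. With each library centred on its median, 50 pairs (22.7%) were enriched, against 6.99% of all pairs, and 22 (10%) were depleted, against 6.53% of all pairs, so the depleted share then lay above and not below that of all pairs. The 220 pairs share the 9 inputs and each mRNA counts 22 times, so the pairs are not independent. WDR5, a subunit of histone methyltransferase complexes, had 5 of 10 enriched and none depleted, where 3.9% and 6.71% of all genes were. CBX3, a heterochromatin protein, also had 5 enriched and none depleted (7.45% and 3.65% of all genes). EZH2, the methyltransferase of the Polycomb repressive complex PRC2, had 4 enriched and none depleted (10.5% and 9.13% of all genes), and HNRNPH1, a splicing regulator, had 4 enriched and 3 depleted (24.5% and 7.9% of all genes). CHD4 had 3 enriched (2.91% of all genes, with 9.79% depleted), NUP98 had 2 (0.263%, with 5.11% depleted) and DNMT1 had 2 (9.56%, with 6.88% depleted).

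The remaining proteins had fewer calls. HDAC1 had 2 enriched and 1 depleted (8.42% and 5.35% of all genes), and SUZ12 had 1 of each (15.3% and 8.6%). Single enrichments were found in CHD1 (0.424% of all genes, with 1% depleted), PHF8 (3.18%, with 1.71% depleted), phospho-CBX3 (2.58%, with 2.91% depleted), STAG2 (0.979%, with 3.36% depleted), CBP (9.08%, with 3.78% depleted) and PABP (11.1%, with 14.7% depleted). Depletion alone was found for 2 mRNAs in HNRNPU (2.52% of all genes, with 13.1% enriched), and for 1 each in ADAR (4.31%, with 26.6% enriched) and CHD7 (0.896%, with 0.99% enriched). None of the 10 passed in either direction in CTCF (0.424% of all genes enriched and 0.79% depleted), LSD1 (0.814% and 6.66%), PCAF (0.515% and 8.54%) and RBBP5 (2.28% and 0.731%).

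The counts by protein depend on the scaling. After centring every library on its own median, WDR5 had 8 enriched (9.52% of all genes), NUP98 had 6 (2.79%), PCAF had 6 (11.8%), PABP had 5 (20.9%) and LSD1 had 3 (4.76%), none of them with a depleted mRNA. Depleted mRNAs then numbered 8 in ADAR (35.2% of all genes), 7 in HNRNPU (13.7%) and 4 in HNRNPH1 (22.1%), which had 2 enriched (8.59%). EZH2 had 4 enriched, CHD4 had 4 and CBX3 had 3 (13.2%, 10.4% and 5.4% of all genes). CTCF and RBBP5 again had none in either direction. With the matched input set in place of all inputs, 31 of the 46 calls in the 24 proteins remained, 15 were lost and 3 enrichments were gained, those of JUNB in DNMT1 (1.13), JUN in LSD1 (1.21) and IER3 in WDR5 (1.04).

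**Figure D4:**
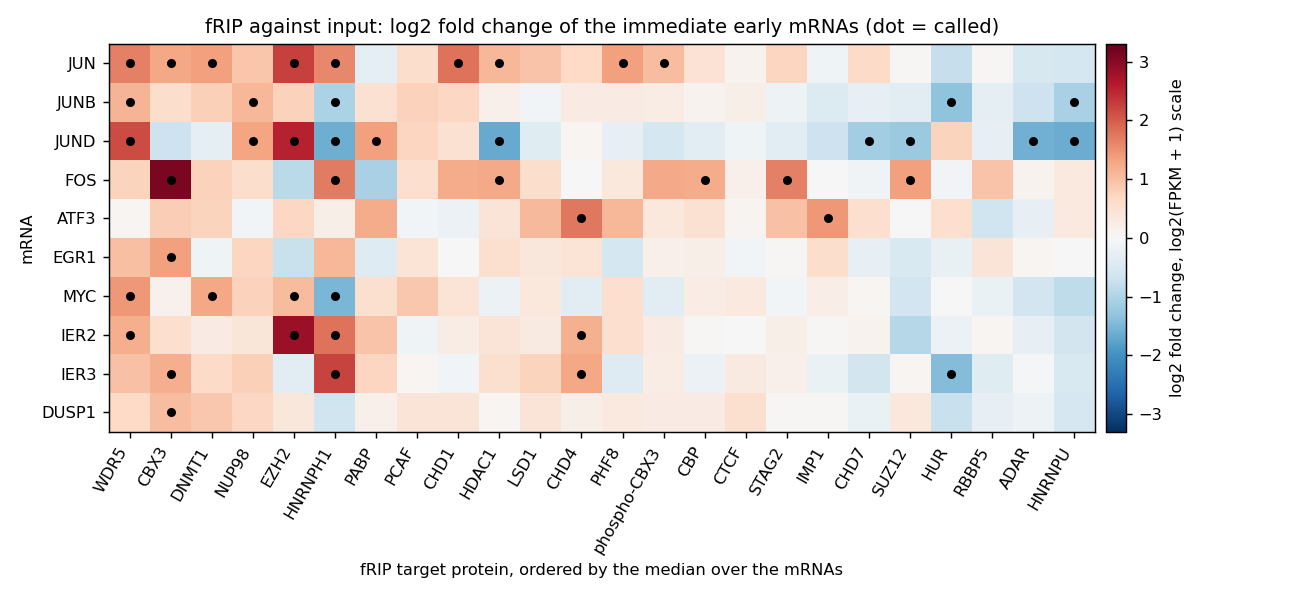
Log2 fold change over input of each mRNA (rows) in each of the 24 fRIPs (columns, ordered by the median over the mRNAs), red for higher and blue for lower, with a dot where the adjusted p was under 0.05 and the change over 2-fold. JUN has 9 dots, all in red cells, and JUND has 4 in red and 6 in blue cells.

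JUN, the founding subunit of AP-1, was enriched in 9 proteins, the most of any of the 10. EZH2 had the highest levels, at 58.8 and 37.2 FPKM against 4.67 to 13.8 FPKM in input, a log2 fold change of 2.25 (SE 0.34, adjusted p = 1.58e-07). CHD1, a chromatin remodeler, held 38.7, 47.7 and 20.9 FPKM (1.79, SE 0.29, adjusted p = 1.22e-05), and WDR5 held 41.0, 36.9 and 19.3 FPKM (1.66, SE 0.29, adjusted p = 4.70e-06). None of the libraries of these 3 proteins overlapped with input. HNRNPH1 (1.59), DNMT1 (1.35), PHF8 (1.35), CBX3 (1.26), HDAC1 (1.09) and phospho-CBX3 (1.02) were the others, all kept against their matched sets. The last of them was lost without phospho-CBX3 replicate 1, input set 1 replicate 1 or input set 2 replicate 3 (0.91 to 0.96), as was that of HDAC1 without input set 1 replicate 1 (0.99). With each library centred on its median, HNRNPH1 (0.86) and HDAC1 (0.80) were not called. Where each protein was fitted alone with its matched inputs and the replicate block, EZH2, CBX3, PHF8 and phospho-CBX3 were not (adjusted p of 0.152, 0.0517, 0.15 and 0.0969). Their log2 fold changes in that small fit were still 2.0, 1.52, 1.22 and 1.28. The lowest mean was that of HUR, at 5.02 FPKM.

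JUNB was enriched in WDR5 (29.0, 25.0 and 27.1 FPKM, log2 fold change 1.13, adjusted p = 2.14e-07) and in the nucleoporin NUP98 (25.6, 22.4 and 31.9 FPKM, 1.10, adjusted p = 1.67e-06). Both lie above all inputs (8.06 to 15.8 FPKM). Against their matched set 2, in which JUNB is highest, they were 0.80 and 0.77 and no longer called, and the call in NUP98 was also lost without its replicate 3 (0.97). Depletion was called in HNRNPH1 (3.65, 6.30 and 6.05 FPKM, -1.04) and HNRNPU (4.84, 5.00 and 5.57 FPKM, -1.06), beside HUR. Against their matched set 1, in which JUNB is lowest, these were -0.70 and -0.72 and not called. The call in HNRNPH1 also ended without its replicate 1, or without input set 2 replicate 1 or 3 (-0.83 to -0.99), and at -0.99 without the 6 libraries that stood apart.

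JUND, the AP-1 subunit with the steadiest expression in most cells, had the most calls in all, 4 enriched and 6 depleted. In EZH2 fRIP it was at 250.2 and 232 FPKM, far above the inputs (25.4 to 66.0 FPKM), with a log2 fold change of 2.54 (SE 0.27, adjusted p = 7.72e-12). WDR5 libraries held 179, 184 and 190.3 FPKM, again above all inputs, and gave 2.16 (SE 0.23, adjusted p = 2.39e-11), or 1.55 against the matched set. PABP, which binds poly(A) tails, held 92.2, 125 and 99.1 FPKM (1.35, adjusted p = 1.32e-06). Against its matched set this was 1.34, and against input set 2 alone 0.74 and not called. NUP98 held 95.0, 93.0 and 119.7 FPKM (1.31, adjusted p = 1.93e-05), which fell short against its matched set (0.70).

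At the other end, JUND was depleted in HDAC1 (9.63, 11.9 and 15.6 FPKM, log2 fold change -1.66), HNRNPU (12.5, 13.1 and 11.3 FPKM, -1.65) and HNRNPH1 (11.1, 11.1 and 15.6 FPKM, -1.62). All of these libraries were below all inputs, with adjusted p between 1.40e-08 and 3.05e-08, and the calls remained against the matched set 1 (-1.05, -1.04 and -1.01). The depletions in ADAR (-1.58) and SUZ12 (-1.22), the partner of EZH2 in PRC2, did not remain against that set (-0.97 and -0.61). That in CHD7 (-1.14) remained against its matched set 3 (-1.14), but not against set 1 alone (-0.53, adjusted p = 0.167). It was also lost with CHD7 and its matched inputs fitted alone with the replicate block (-1.14, adjusted p = 0.115). Without CHD7 replicate 3 it was -0.84 and not called, as that in SUZ12 was not without SUZ12 replicate 2 (-0.95). In the order of its 25 group means, from 241 FPKM in EZH2 to 12.3 FPKM in HNRNPU, JUND had 4 of 24 steps without overlap between neighbours, those from EZH2 to WDR5, from WDR5 to PABP, from NUP98 to HUR and from IMP1 to CHD7.

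FOS, the inducible partner of JUN in AP-1, had the largest log2 fold change of the group, in CBX3. Its libraries held 53.9, 19.1 and 30.7 FPKM against 0.841 to 5.96 FPKM in input, a log2 fold change of 3.10 (SE 0.50, adjusted p = 7.75e-07). With CBX3 and its matched inputs fitted alone with the replicate block it was 2.87 (adjusted p = 0.0770) and not called. HNRNPH1 followed at 4.07, 16.6 and 20.6 FPKM (1.71, adjusted p = 0.00244), with its first library inside the input range, and was 0.97 and not called once each library was centred on its median. STAG2, a cohesin subunit, held 10.3 and 11.8 FPKM (1.66, adjusted p = 0.0490). With the replicate number as a block the log2 fold change was 1.66, and that fit left out the second STAG2 library, which has no replicate number. Without this library and with no block it was 1.57. Both fits leave 1 STAG2 library, so no test is given for them. SUZ12 (1.34), HDAC1 (1.24) and CBP (1.22) had adjusted p between 0.0217 and 0.0484.

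Of the calls of FOS, these last 4 were lost in the most alternatives. Those in STAG2, SUZ12 and HDAC1 were lost against the matched set (1.44, 1.12 and 1.02), and those in STAG2, HDAC1 and CBP without the 6 libraries that stood apart (1.59, 1.17 and 1.16). Leaving out any HDAC1 library, CBP replicate 1 or 2, or SUZ12 replicate 2 or 3 also ended the call in question. So did leaving out input set 1 replicate 1, input set 2 replicate 3 or input set 3 replicate 1 or 3 for STAG2, HDAC1 and CBP. Input set 3 replicate 2 did so for STAG2 and CBP. With any 1 library left out, the log2 fold change of FOS lay between 1.53 and 1.77 in STAG2, 0.91 and 2.04 in SUZ12, 1.10 and 1.36 in HDAC1, and 0.72 and 1.75 in CBP. PABP libraries, at 0.699, 1.46 and 0.454 FPKM, had the lowest mean of FOS, and the EZH2 libraries held 2.35 and 0.245 FPKM, the latter on about 4.39 fragments.

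ATF3 was enriched in CHD4, the remodeler of the NuRD complex, beside IMP1. CHD4 libraries held 81.4, 95.8 and 85.2 FPKM, the highest mean of the 25 groups and above every input (3.93 to 41.1 FPKM), with a log2 fold change of 1.73 (SE 0.60, adjusted p = 0.0170). It was 1.75 against the matched set (adjusted p = 0.0508) and was not called without CHD4 replicate 2 or 3 (1.66 and 1.75, adjusted p 0.0631 and 0.0516). Without the 6 libraries of low ATF3 it was 1.43. Neighbours in the order of means were apart only from CHD4 to IMP1 and from IMP1 to PABP. EGR1 was called in CBX3 alone (28.6, 18.7 and 19.9 FPKM, 1.35, adjusted p = 0.0331), and this was lost against the matched set (1.21, adjusted p = 0.164), with each library centred on its median (1.22, adjusted p = 0.0648), without any 1 of the CBX3 libraries, and without input set 1 replicate 1 or input set 3 replicate 3 (1.17 to 1.46 with any 1 library left out).

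MYC was enriched in WDR5, EZH2 and DNMT1 and depleted in HNRNPH1. WDR5 libraries held 164, 173 and 204 FPKM, all above the inputs (53.3 to 81.5 FPKM), with a log2 fold change of 1.43 (SE 0.18, adjusted p = 4.39e-09). DNMT1, the maintenance DNA methyltransferase, held 169, 119 and 215 FPKM (1.29, SE 0.18, adjusted p = 3.76e-08), and EZH2 held 162 and 116 FPKM (1.04, adjusted p = 5.92e-05). In DNMT1 a 577-base isoform with no defined coding sequence made up 35.9% ± 10.5 of MYC, at a mean of 62.9 FPKM, against 3.86% ± 1.40 and 2.61 FPKM in input, while the leading isoform was at 52.3 FPKM against 42.4 FPKM in input. That short isoform made up 19.6% ± 8.91 of MYC in HNRNPH1, where MYC was depleted, 15.7% ± 1.28 in STAG2, 11.9% ± 0.445 in PHF8 and 3.77% ± 1.39 in WDR5. The calls in WDR5 and DNMT1 remained in every alternative run, and that in EZH2 was lost against its matched set (0.89) and without EZH2 replicate 1 (0.81). HNRNPH1 libraries, at 30.0, 19.0 and 20.7 FPKM, lay below all inputs (-1.5, SE 0.18, adjusted p = 2.33e-10), and HNRNPU to HNRNPH1 was the only step in the order of MYC means without overlap.

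**Figure D5:**
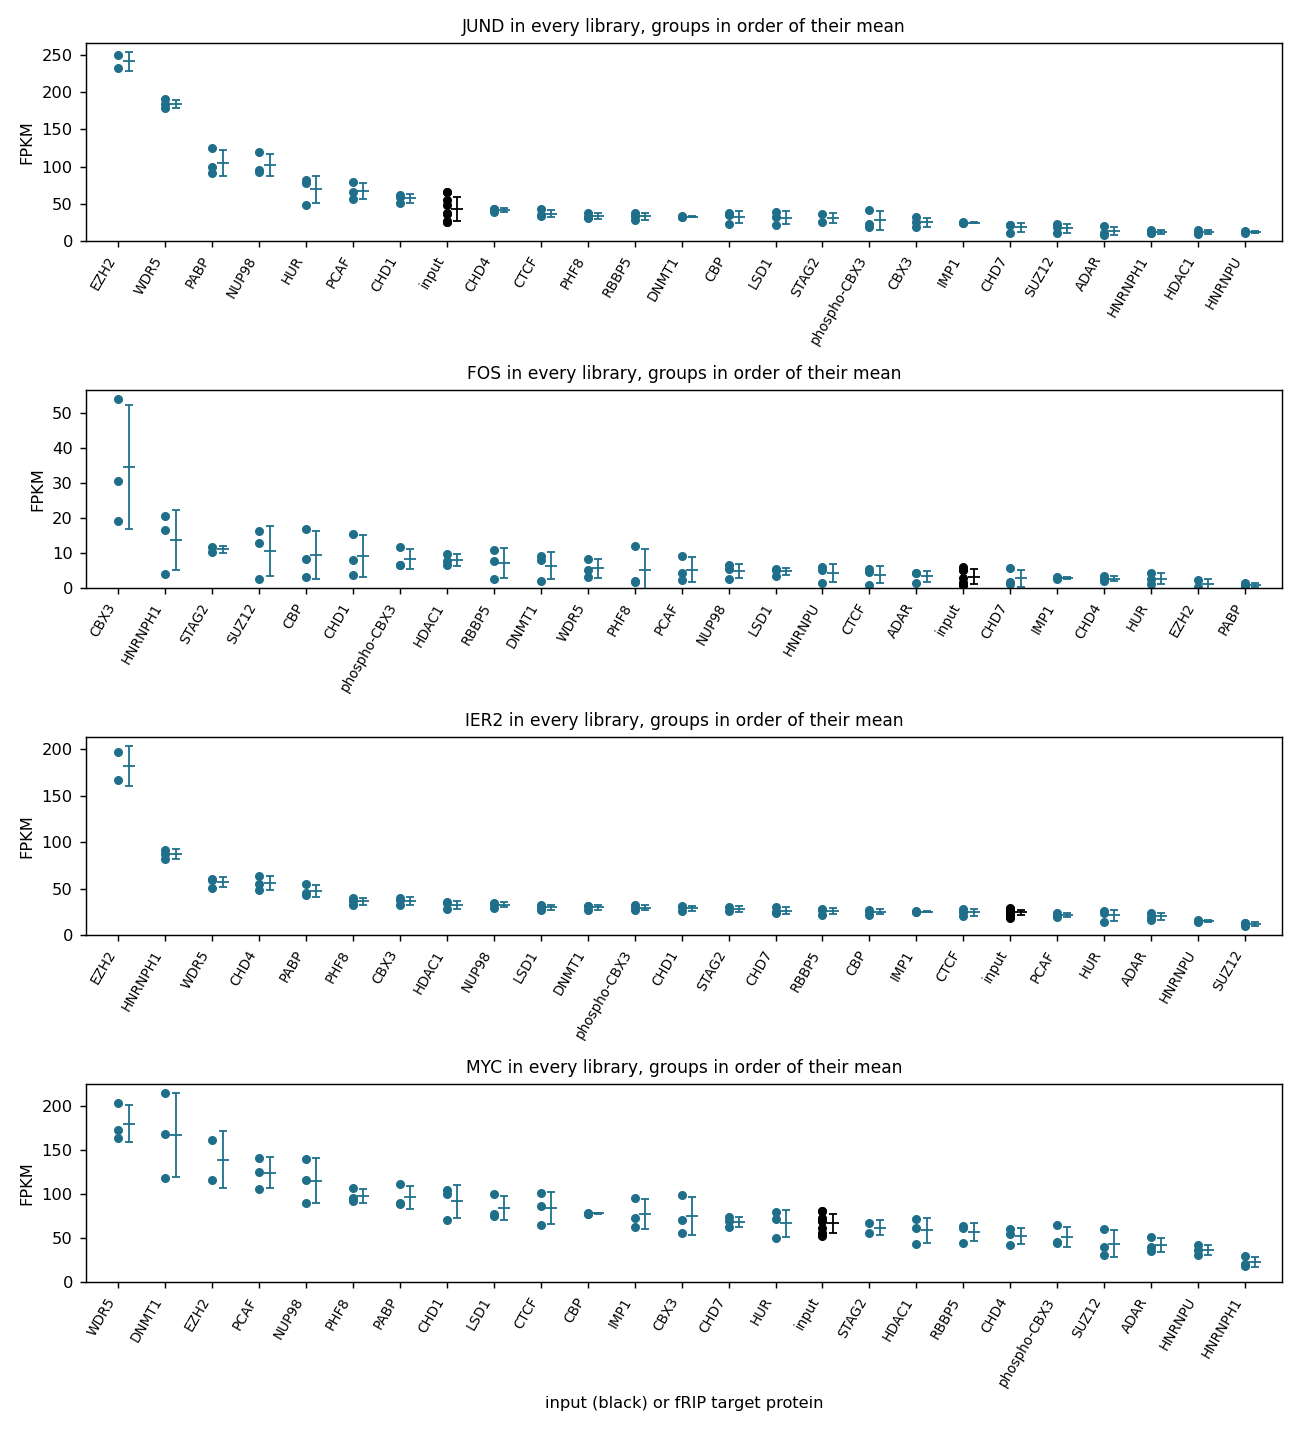
FPKM of JUND, FOS, IER2 and MYC in every library (points), with the mean and SD beside them, for the 24 fRIPs (blue) and input (black), each panel ordered from the highest to the lowest mean. EZH2 and WDR5 lead for JUND, EZH2 and HNRNPH1 for IER2, CBX3 for FOS and WDR5 for MYC, whose lowest group is HNRNPH1.

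IER2 and IER3 are small immediate early products that share a name and not a family. IER2 was at 166 and 197 FPKM in EZH2 fRIP, where no input exceeded 28.9 FPKM, and its log2 fold change of 2.84 (SE 0.14, adjusted p = 2.77e-25) had the smallest adjusted p among all calls of the 10. HNRNPH1 held 82.1, 87.8 and 91.9 FPKM of IER2 (1.80, SE 0.12, adjusted p = 5.67e-20), WDR5 held 59.8, 60.5 and 51.1 FPKM (1.19, adjusted p = 2.91e-12), and CHD4 held 49.1, 63.9 and 55.4 FPKM (1.16, adjusted p = 6.28e-12). All these libraries were above all inputs, and the 4 calls remained against the matched sets (2.73, 1.75, 1.34 and 1.12). The EZH2 calls of JUN, JUND and IER2, with 2 libraries, were lost only where EZH2 and its matched inputs were fitted alone with the replicate block. The log2 fold changes there were 2.0, 2.47 and 2.68.

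IER3 was enriched in HNRNPH1 at 57.3, 61.5 and 41.9 FPKM (log2 fold change 2.23, SE 0.25, adjusted p = 1.67e-11), where input held 8.53 to 14.9 FPKM. CHD4 held 21.3, 41.1 and 21.3 FPKM (1.26, adjusted p = 3.53e-05) and CBX3 held 23.4, 39.0 and 17.7 FPKM (1.20, adjusted p = 8.72e-05). The second library was the highest in both. Without it they were 0.96 and 0.90 and not called, and CBX3 was also short against its matched set (0.96). From HNRNPH1 to HUR, the means of IER3 covered a ratio of 16.2. DUSP1 was enriched in CBX3 alone (10.7, 10.8 and 8.84 FPKM against 3.23 to 5.79 FPKM, 1.02, adjusted p = 8.81e-05), at the edge of the 2-fold criterion, and lay just under it, from 0.97, without CBX3 replicate 1 or 2, input set 1 replicate 1, input set 2 replicate 3 or input set 3 replicate 1. It was 0.99 without the 6 libraries that stood apart and 0.89 with each library centred on its median.

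The isoform table divides the values of FOS, ATF3 and IER3 among their transcripts. Isoform levels are estimates from short reads, so they are given without a test. For FOS, 6 of 10 annotated isoforms hold at least 100 bases of an intron of the leading transcript, and in input they made up 61.7% ± 16.1 (SD, n = 9) of the gene's FPKM. Their share was 82.1% ± 4.95 in CBX3 and 92.4% ± 1.98 in HNRNPH1 (n = 3 each), where FOS was enriched, and 3.20% ± 5.48 in PABP. CBP (86.4% ± 6.835), STAG2 (81.9% ± 0.103) and SUZ12 (80.3% ± 2.03), where FOS was also called, had higher mean shares than input as well. The share did not follow the calls throughout. It was 60.5% ± 9.12 in HDAC1, where FOS was called, and 78.9% ± 5.94 in CHD1, 77.5% ± 6.54 in HNRNPU and 74.9% ± 8.07 in phospho-CBX3, where it was not. In CBX3 the isoforms with intron sequence stood at a mean of 28.6 FPKM and the others at 5.95 FPKM, against 2.09 and 1.23 FPKM in input. For ATF3, 6 of 9 isoforms hold such intron sequence, with 45.3% ± 11.3 of the gene in input and 34.0% ± 5.99 in input set 1. Their share was 25.6% ± 3.14 in CHD4 and 27.1% ± 2.75 in IMP1, where ATF3 was called. It was 29.7% ± 6.28 in LSD1, where ATF3 was not called.

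IER3 has 1 isoform that keeps its single intron. It made up 8.24% ± 5.73 of the gene in input (n = 9), 50.5% ± 5.00 in SUZ12, 38.3% ± 20.9 in CBX3 and 34.7% ± 11.6 in CBP (n = 3 each). In HUR, PABP and EZH2 fRIP it was estimated at under 0.01% in every library. The estimate was also under 0.01% in at least 1 library of input, ADAR, CHD4, HNRNPU, LSD1, NUP98, PHF8 and STAG2. In HUR the whole gene rests on about 16 to 41 fragments per library. In HNRNPH1, where IER3 was enriched, both forms were higher than in input, the spliced one at a mean of 48.0 FPKM against 9.70 FPKM and the intron-holding one at 5.60 FPKM against 0.895 FPKM, with a share of 10.7% ± 5.00.

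A wider list of 54 immediate early genes that are not among the 10, chosen by name, had 41 genes tested. In HUR fRIP none of the 41 was enriched and 5 were depleted, where 6.42% and 6.93% of all genes were, with a median of -0.28. The 5 were ID1 (-2.36, adjusted p = 2.74e-12), ID3 (-2.13, adjusted p = 6.52e-09) and ID2 (-1.15, adjusted p = 0.00407), which encode inhibitors of DNA-binding helix-loop-helix factors, with IER5 (-2.09, adjusted p = 3.21e-18) and NFKBIA (-1.65, adjusted p = 8.35e-14), the inhibitor of NF-κB. In IMP1 fRIP 3 were enriched, BTG2 (1.10), DUSP5 (1.09) and SRF (1.00), and 1 was depleted, CCNL1 (-1.35), where 4.23% and 10.5% of all genes were, with a median of 0.22. For comparison, 16 tested genes of glycolysis, whose mRNAs are long lived, had a median of -0.86 with HUR, with 6 depleted and none enriched, and of -0.16 with IMP1, with 1 enriched and 1 depleted, beside the same shares of all genes.

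Across the 25 group means, the 10 mRNAs did not share 1 profile. Of their 45 pairs, 11 had a Pearson r above 0.5 and 9 were below 0, with a median of 0.25 and a range from -0.42 for JUND and FOS to 0.87 for JUNB and DUSP1. Outside the group, the genes with the profile most like its mean were ASB6 (r = 0.84), PHF23 (0.83), DNAJB1 (0.82), NFE2 (0.81) and NFKBIE (0.81), over 25 groups and among 16343 genes. The groups, of which input is 1, differ in depth, and these r are descriptions.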

How the data were processed

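The members and gene lists were chosen with earlier results of these data known. Per the authors' methods and the submitters' processing notes, reads were called with CASAVA 1.4, aligned to hg19 with TopHat and quantified on GENCODE v18 with Cuffdiff 2 and Cuffnorm. The deposited gene and isoform tables hold FPKM per library as the authors computed it, and strand use in counting is not given in the sources used here, so overlapping and antisense transcripts cannot be told apart. A deposited table of the authors' comparisons also holds fold changes and p-values. These were not used, and only its input FPKM served to match each protein to the input set it equals most closely, at least 14.4 times nearer than the next.

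A pseudocount of 1 FPKM was added, genes reaching 1 FPKM in 2 or more libraries entered the fit, and log2(FPKM + 1) was modelled in limma 3.58.1 (R 4.3.3, intensity trend) from the 79 libraries together, each protein and input having its own mean, with Benjamini-Hochberg adjustment within a comparison. Fold changes on this scale understate those of low genes. A call needed an adjusted p under 0.05 and over 2-fold. The fit was tested on simulated data. Exact permutation tests (scipy 1.17.1, Python 3.11.15) compared the HUR and IMP1 libraries with input on the same scale. Per the authors, replicate fRIPs of a protein were made from different lysates on different days, and p-values cover the spread between these libraries. Fragments per library are an approximation from the step that 1 fragment adds to low FPKM values, with 97.6% to 99.6% of low values within 0.15 of a whole number. The length of the most expressed coding transcript stood for the whole gene. For a gene with much of its value in shorter isoforms, such as FOS, the counts are therefore too high.

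Features and sequences came from GENCODE v44 lifted to hg19, for the most expressed coding transcript of each gene, with AUUUA and UUAUUUAUU counted on the transcribed strand, overlaps included. Named one by one were the 10 members, genes of the wider list called in HUR or IMP1, glycolysis genes by count only, and the 5 genes of most alike profile. Replicate numbers were checked for pairing: within input set 2 and its proteins, same-numbered libraries deviated together (mean r 0.33, against -0.16 for different numbers), with every pair over 0.1 in 4 of 5 proteins, and no protein of sets 1 and 3 met this. Alternatives covered the pseudocount, the filter, centring, the choice of inputs, the replicate block and each library left out. One marker gene is not reported here by name.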

Additional observations from a re-analysis of the deposited data

Results flagged for a closer look

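Of the members' values, 2 were singled out because the effects of HUR and IMP1 differed by a test of the difference itself. JUND was 1.41 higher on the log2 scale with HUR than with IMP1 (limma, adjusted p = 3.70e-05), with 3 of 3 HUR libraries above all IMP1 libraries. IER3 had a difference of -1.22 (adjusted p = 0.000875), with 3 of 3 HUR libraries below all IMP1 libraries. With each protein set against its matched input set these were 0.80 (adjusted p = 0.0542) and -0.82 (adjusted p = 0.135). None of the 10 members had an input library far enough from the other 8 to stand out by Dixon's test.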

How the results depend on the processing

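Over the alternatives run for HUR, IMP1 and the called pairs, no value with a call changed its direction. The count of enriched pairs in the other 22 proteins was 34 (15.5%, against 7.04% of all pairs). It was 50 with each library centred on its median (22.7%, against 6.99% of all pairs). Where each protein and its matched inputs were fitted alone with the replicate block it was 20. The share of all pairs in that fit is not given, so the 20 is not a result about the 10 mRNAs. The count of depleted pairs was 9 (4.09%, against 5.23% of all pairs), and 22 with that centring (10%, against 6.53% of all pairs). It was 4 against input set 1 alone, 5 against the matched set with or without the replicate block, and 4 in the fit alone with that block. For these settings too the share of all pairs is not given, so the counts are not a result about the 10 mRNAs. With the block over all libraries every call remained except FOS in STAG2, where 1 STAG2 library was left and no test is given. That block joins same-numbered libraries across the input sets, so it does not model pairing within a set and says little about it. In HUR, members enriched and depleted went from 0 and 2 to 1 and 1 against input set 1 alone and to 0 and 3 with centring. In IMP1, the enriched count fell from 1 to 0 at pseudocounts of 0.1 and 0.5, without the filter, against sets 1 or 3 alone and against the matched set with or without the block, and lay between 0 and 1 with 1 library left out, while the depleted count was 1 against set 2 alone. Between HUR and IMP1, the higher count fell from 1 to 0 with centring and with matched inputs, and the lower count of 1 became 2 at a pseudocount of 0.1, 5 with centring, and 0 to 2 with 1 library left out. Centring shifted the median of all genes by -0.25 in HUR, 0.46 in IMP1, -0.71 between them, and -0.98 to 0.61 in the other 22. Over all genes tested, the split of enriched to depleted went from 1634 to 1764 to 693 to 2707 in HUR, from 1077 to 2661 to 3169 to 920 in IMP1, and from 3888 to 1456 to 1662 to 5819 between them. The cause of these changes was not tested. Of the 46 calls against input, 15 remained in every alternative and 29 with any 1 library left out. Alternatives that leave out the 6 libraries, fit 1 protein with its matched set, or match inputs between HUR and IMP1 were chosen after seeing the data. FOS, DUSP1 and IER3 rest on the fewest fragments, with medians of about 138, 155 and 215 per library.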
